A study of Homo sapiens with 4 samples.

Results

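Kinetochore and spindle checkpoint genes were examined in human mammary epithelial cells with and without a shRNA against PAK1. The set held 39 genes chosen by name, 15 of the constitutive centromere, 14 of the outer kinetochore and 10 of the checkpoint, out of 27193 genes named on the array. All 39 were measured, and all 39 passed the filter on dim probes, which left 21990 genes for the test. CENPS and CENPX are listed under their array names, APITD1 and STRA13.

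Both groups were MCF10A.B2 cells, which are MCF10A cells, a non-tumorigenic mammary epithelial line, carrying a chimeric ErbB2 (Her2) receptor that the dimerizer AP1510 activates. The control group (2 arrays) is called control in the sample titles and PAK1 wild type in their descriptions. The PAK1 shRNA group (2 arrays) expressed a shRNA against PAK1, tetracycline inducible according to the series description, and the labels do not state the inducer or how long it was given. Cells of both groups were starved of serum for 3 h and stimulated with AP1510 for 15 min before RNA extraction. No arrays of cells with a non-targeting shRNA were analysed here. The labels give the diagnosis as breast cancer and the series description gives tumor derived cells, from 2 tumors in each group, whereas the sample titles name the cell line. If the titles hold, it is not stated whether the 2 replicates of a group were separate cultures, and the p-values then measure only the spread between these samples, which may be technical.

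The kinetochore is the protein assembly that joins each chromosome to the microtubules of the mitotic spindle. Its base, the constitutive centromere network, sits on nucleosomes that carry the histone variant CENP-A and stays at the centromere through the cell cycle, while the outer kinetochore assembles on it when cells enter mitosis and binds microtubules. The spindle checkpoint senses kinetochores without microtubules and holds back anaphase until all are attached, and many of these genes are transcribed mainly in G2 and mitosis, so that their RNA is abundant in dividing epithelial cells and low in resting ones.

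RNA was labelled with 1 dye and hybridized to Agilent whole genome arrays, 1 per sample, which shared 1 slide. Between 78.9% and 83.2% of 34127 probes were well above background. Values are given as normalized log2 intensity, the brightness of a gene's probe after background correction and quantile normalization, and a log2 fold change is the mean of the PAK1 shRNA arrays minus the mean of the control arrays. Levels of different probes were not compared with each other, except that cell type markers were summed, where the brightest probes weigh most. PAK1 itself, which the shRNA targets, had intensities of 11.19 and 11.27 in control cells against 10.44 and 10.51 in PAK1 shRNA cells, a log2 fold change of -0.76 (standard error, SE, 0.08, Benjamini-Hochberg adjusted p = 0.00018 in the limma fit), which left 59.2% of the control level.

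To show the DNA in front of these genes, promoters were taken from RefSeq (GRCh38.p14), and 29 of the 39 genes matched exactly 1 promoter. The 250 bases before the start site were searched on both strands for the letters TTTGAA and TTCGAA, those of the cell cycle homology region (CHR), and for CCAAT, the letters of the CCAAT box. Both elements are known from promoters that are active late in the cell cycle. The letters of the motifs stand in capitals in the promoters below, each printed 5′ to 3′ on the gene's own strand, where ATTGG is CCAAT on the other strand, and ending at the base before the start site. CENPA and BUB1B are shown as genes with CHR letters close to the start site, CENPF as the gene with the largest fall and with CCAAT letters at 3 places, ZW10 as a gene with CHR and CCAAT letters whose RNA fell by less than 2-fold, and CENPT as a gene with neither motif whose change did not pass the test.
CENPA, chr2:26785806-26786055, plus strand: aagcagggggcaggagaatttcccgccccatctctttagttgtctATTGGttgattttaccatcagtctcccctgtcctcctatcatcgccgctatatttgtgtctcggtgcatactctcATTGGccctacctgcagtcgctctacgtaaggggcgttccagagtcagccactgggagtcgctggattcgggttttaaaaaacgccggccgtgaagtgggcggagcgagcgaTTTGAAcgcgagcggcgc
BUB1B, chr15:40160819-40161068, plus strand: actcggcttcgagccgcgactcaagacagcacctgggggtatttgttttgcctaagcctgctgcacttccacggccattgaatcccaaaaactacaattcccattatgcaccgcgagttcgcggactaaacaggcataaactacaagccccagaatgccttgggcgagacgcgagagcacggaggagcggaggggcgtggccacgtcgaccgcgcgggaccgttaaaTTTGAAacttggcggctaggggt
CENPF, chr1:214602945-214603194, plus strand: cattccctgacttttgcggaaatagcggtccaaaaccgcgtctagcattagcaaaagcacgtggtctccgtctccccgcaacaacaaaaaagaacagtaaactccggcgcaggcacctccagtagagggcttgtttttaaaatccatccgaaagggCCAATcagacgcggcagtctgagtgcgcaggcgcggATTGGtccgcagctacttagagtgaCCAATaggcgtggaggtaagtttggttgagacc
ZW10, chr11:113773693-113773942, minus strand: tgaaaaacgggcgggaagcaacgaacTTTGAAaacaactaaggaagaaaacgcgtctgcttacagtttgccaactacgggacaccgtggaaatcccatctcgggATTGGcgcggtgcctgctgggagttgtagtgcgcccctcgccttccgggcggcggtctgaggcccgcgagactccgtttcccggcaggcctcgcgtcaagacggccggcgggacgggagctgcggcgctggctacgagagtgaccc
CENPT, chr16:67847694-67847943, minus strand: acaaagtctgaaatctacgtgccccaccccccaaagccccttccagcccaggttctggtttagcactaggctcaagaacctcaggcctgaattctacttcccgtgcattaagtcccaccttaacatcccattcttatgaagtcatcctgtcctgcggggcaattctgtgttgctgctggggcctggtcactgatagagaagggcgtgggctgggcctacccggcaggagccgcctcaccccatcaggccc

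CHR letters were found in the promoters of 5 of the 29 genes (17.2%), against 14.3% of all 35116 promoters in the table. These 5 were CENPA, HJURP, SPC25, BUB1B and ZW10, and the letters began 18, 111, 247, 23 and 224 bases before the start site, respectively. CCAAT letters were found in 15 of the 29 promoters (51.7%), against 32.0% of all promoters. At least 2 CCAAT matches were found in 10 of the 29 (34.5%), against 9.53% of all promoters. Among the 13 matched genes that fell by at least 8-fold, 4 held CHR letters and 8 held CCAAT letters, and among the 5 matched genes that changed by less than 2-fold, 1 held CHR letters and 2 held CCAAT letters. In the remaining 11 genes, which fell by 2-fold to 8-fold, CHR letters were found in 0 and CCAAT letters in 5. The shares over all promoters also count promoters of genes that have several, which the 29 leave out. Letters alone do not show that a factor binds, and these shares were not tested.

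Kinetochore and checkpoint genes were lower in PAK1 shRNA cells in all classes. Of the 39 genes, 37 fell (94.9%), 0 rose and 2 (CENPP and CENPT) did not pass the test, with limma's p adjusted over all genes tested and a threshold of 0.05. Without SPC24, which was at background in PAK1 shRNA cells and passed the filter through the control group, 36 of 38 fell. Over all 21990 genes, 62.5% passed this threshold, 32.0% lower and 30.6% higher. Of the 39 genes, 31 fell by at least 2-fold, against 9.09% of all genes, and 17 (43.6%) by at least 8-fold, against 0.668% of all genes. Counts at 8-fold depend on the processing. With the background model fitted on all spots, CENPA, SKA3, TTK, SGOL1 and SGOL2 fell by less than 8-fold. With the processed signal scaled to the 75th percentile, CENPI and SKA1 fell by more than 8-fold, and so did SPC24, from values at background. Both PAK1 shRNA arrays lay below both control arrays in 37 of the 39, against 38.0% of all genes, and above them in 1 (CENPT), against 40.1%. SPC24 is counted among the 31 and among the 37. The median log2 fold change of the 39 genes was -2.61, and that of all genes tested was 0.02. In whole-cell RNA, fewer cells in G2 and mitosis and less RNA of these genes per cell cannot be told apart. At an unadjusted p under 0.05, limma had 38 of the 39 lower and 0 higher, and an ordinary unpaired t-test, with Benjamini-Hochberg adjustment, had 36 lower and 0 higher. The smallest two-sided p that an exact permutation test can give with 2 arrays in each group is 0.333, so the calls rest on limma, which shares the estimate of the spread among genes.

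**Figure D1:**
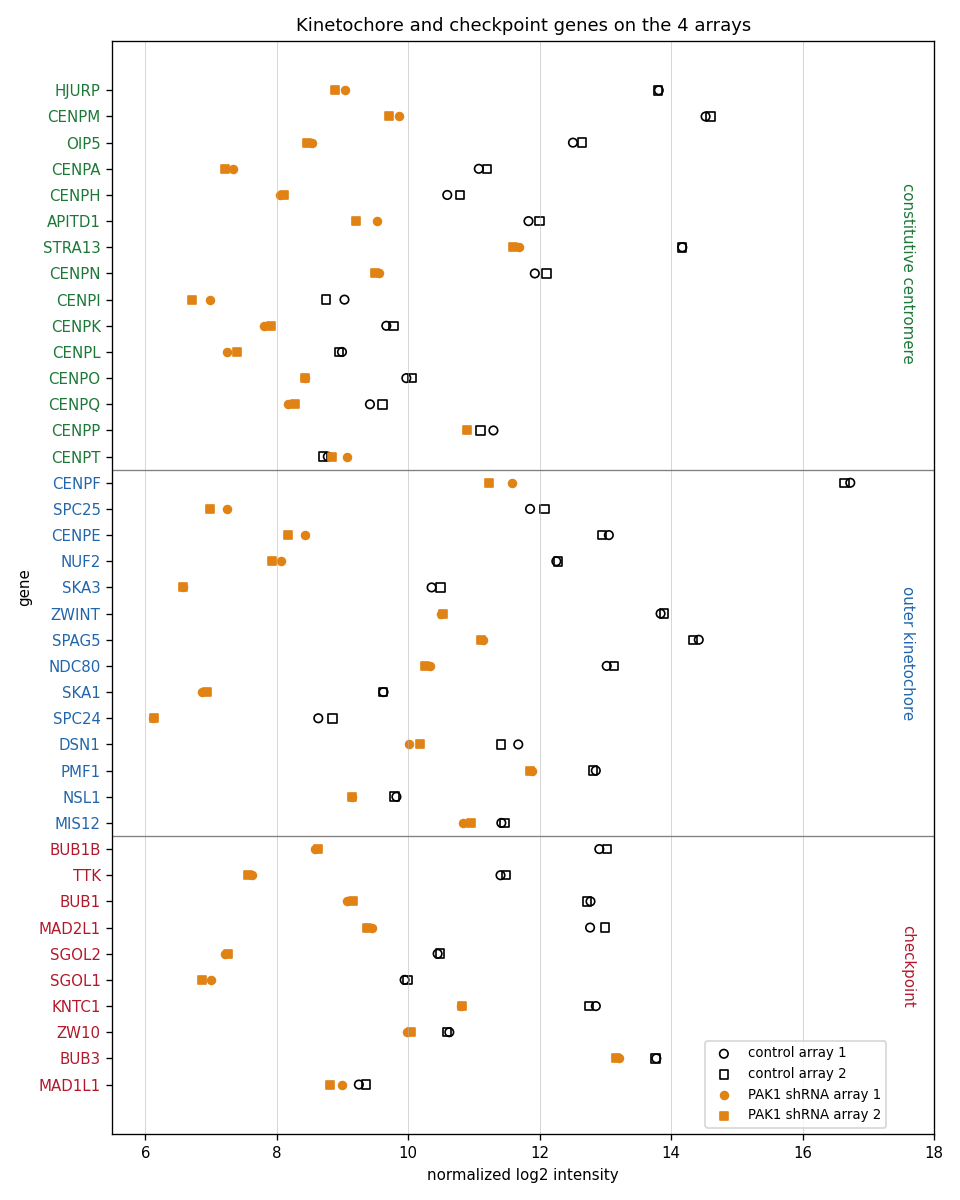
Normalized log2 intensity (x axis) of each of the 39 genes (y axis) on each array. Open symbols are the 2 control arrays and filled symbols the 2 PAK1 shRNA arrays. In 37 genes both filled symbols lie to the left of both open ones. This order held in 38.0% of all genes tested. CENPP lacks PAK1 shRNA array 1, whose spot was flagged, and CENPT has its filled symbols on the right. Symbols can cover each other where arrays of a group lie close together, and levels of different genes, which come from different probes, are not comparable.

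The size of the fall ranged widely. CENPF, a large protein of the fibrous corona that accumulates in G2, had the largest fall, to 2.58% of the control level, and ranked 4 from the lowest among the 21990 genes. SPC25, HJURP, CENPM and CENPE ranked 12, 13, 17 and 22. At the other end, 8 genes changed by less than 2-fold, of which MIS12, NSL1, PMF1, BUB3, MAD1L1 and ZW10 fell and CENPP and CENPT did not pass the test. SE values of the 39 log2 fold changes lay between 0.07 and 0.13, and the highest adjusted p among the 37 that fell was 0.0086 (limma, Benjamini-Hochberg). Of the 39 genes, 38 had a probe well above background on every array, and SPC24 did not. Some others were dim in PAK1 shRNA cells, such as SKA3 (6.58 and 6.57), CENPI (6.99 and 6.70) and SKA1 (6.86 and 6.94). The lowest signals well above background on these arrays were 6.21 and 6.17. Over the alternative settings, the log2 fold change ran from -5.31 to -2.58 for SKA3, -3.08 to -1.23 for CENPI and -3.81 to -1.75 for SKA1.

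**Figure D2:**
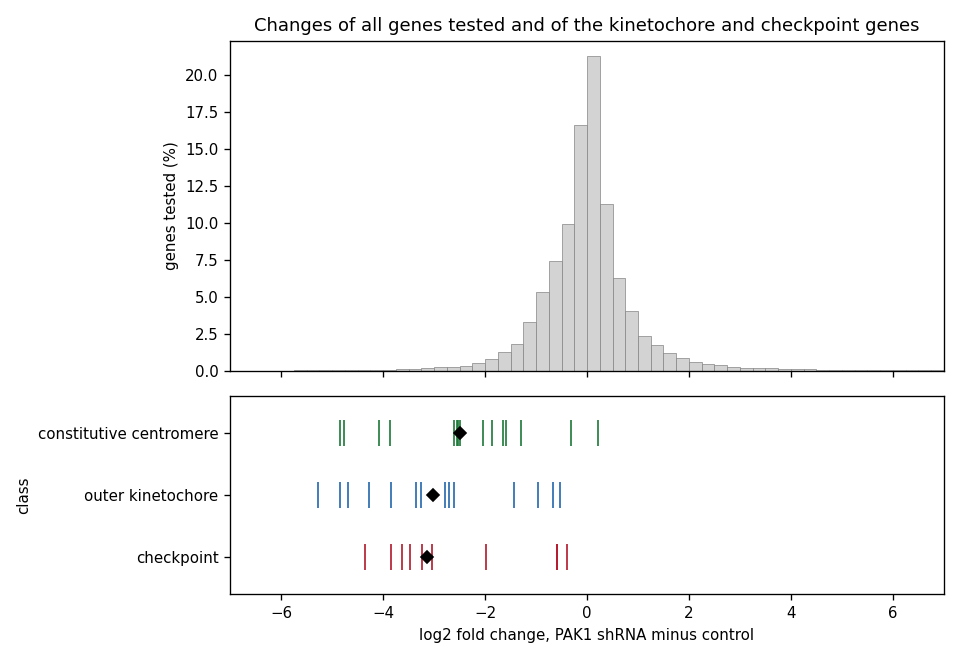
Log2 fold change (x axis) of all 21990 genes tested, as a share of genes in bins (upper panel, y axis in percent), and of each of the 39 genes by class (lower panel, 1 line per gene, a diamond at the class median). All genes centre near 0 with a median of 0.02, while the class medians lie at -2.49, -3.02 and -3.13.

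The constitutive centromere held the 2 genes of the set that did not pass, and 13 of its 15 genes fell, against 32.0% of all genes. All 13 fell by at least 2-fold (9.09% of all genes) and 4 by at least 8-fold (0.668% of all genes). The median log2 fold change of the class was -2.49, with a range of -4.84 to 0.21. The largest falls were those of the loading machinery of CENP-A and of CENPM. HJURP, the chaperone that deposits CENP-A at centromeres, had a normalized log2 intensity of 13.81 and 13.80 in control cells against 9.04 and 8.88 in PAK1 shRNA cells. The arrays of a group lay close together and the groups did not overlap. Its log2 fold change was -4.84 (SE 0.08, adjusted p = 3.3e-07, limma), or 3.48% of the control level. OIP5 (MIS18 beta), part of the complex that primes centromeres for new CENP-A, had intensities of 12.51 and 12.64 against 8.54 and 8.45, a log2 fold change of -4.08 (SE 0.08). CENPA, the histone H3 variant itself, had intensities of 11.07 and 11.20 against 7.33 and 7.21, a log2 fold change of -3.87 (SE 0.09). In all 3 genes both PAK1 shRNA arrays were far below both control arrays, and the median of this group was -4.08. Both PAK1 shRNA arrays lay below both control arrays, by any amount, in 38.0% of all genes.

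CENPH, CENPI, CENPK and CENPM encode a subcomplex in the middle of the constitutive network. CENPM had a normalized log2 intensity of 14.52 and 14.60 in control cells against 9.86 and 9.71 in PAK1 shRNA cells, and its log2 fold change was -4.77 (SE 0.09, adjusted p = 3.9e-07, limma), or 3.66% of the control level. Its partners fell less. CENPH had a log2 fold change of -2.61 (SE 0.09), CENPI of -2.04 (SE 0.13) and CENPK of -1.86 (SE 0.08). CENPN and CENPL, which pair with each other and of which CENP-N contacts the CENP-A nucleosome, had log2 fold changes of -2.49 (SE 0.09) and -1.65 (SE 0.08), which left 17.8% and 32.0% of the control level.

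The CENP-O group was the least changed of the centromere groups, with a median of -1.29. CENPO and CENPQ, which belong to a subcomplex that helps to bring Polo-like kinase to the kinetochore, had log2 fold changes of -1.59 (SE 0.07) and -1.29 (SE 0.09). CENPP, their partner, had a normalized log2 intensity of 11.30 and 11.10 in control cells and 10.89 on PAK1 shRNA array 2. The spot of PAK1 shRNA array 1 carried an outlier flag and was left out, so this value rests on 3 arrays. The log2 fold change of CENPP was -0.31 (SE 0.12, adjusted p = 0.068, limma). A dimmer probe of CENPP, measured on all 4 arrays, read 11.10 and 11.09 in control cells against 10.33 and 10.59 in PAK1 shRNA cells, a log2 fold change of -0.63. CENPP passed the test under 5 alternative settings that kept every array, with values between -0.62 and -0.30.

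CENPT, a DNA-binding histone-fold protein that recruits the NDC80 complex, was separated from its histone-fold partners. Its normalized log2 intensity was 8.78 and 8.70 in control cells against 9.06 and 8.83 in PAK1 shRNA cells. Both PAK1 shRNA arrays lay above both control arrays, but the nearest arrays of the 2 groups were closer than the 2 PAK1 shRNA arrays were to each other. The log2 fold change was 0.21 (SE 0.10, adjusted p = 0.10, limma), and without PAK1 shRNA replicate 2 it was 0.33 (adjusted p = 0.040). APITD1 (CENPS) and STRA13 (CENPX), which form histone-fold complexes with CENP-T at centromeres and also act with FANCM at stalled replication forks, had log2 fold changes of -2.54 (SE 0.12) and -2.53 (SE 0.07). APITD1 overlaps a readthrough transcript with its neighbour CORT, as PMF1 of the outer kinetochore does with BGLAP, and a probe could read both.

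**Figure D3:**
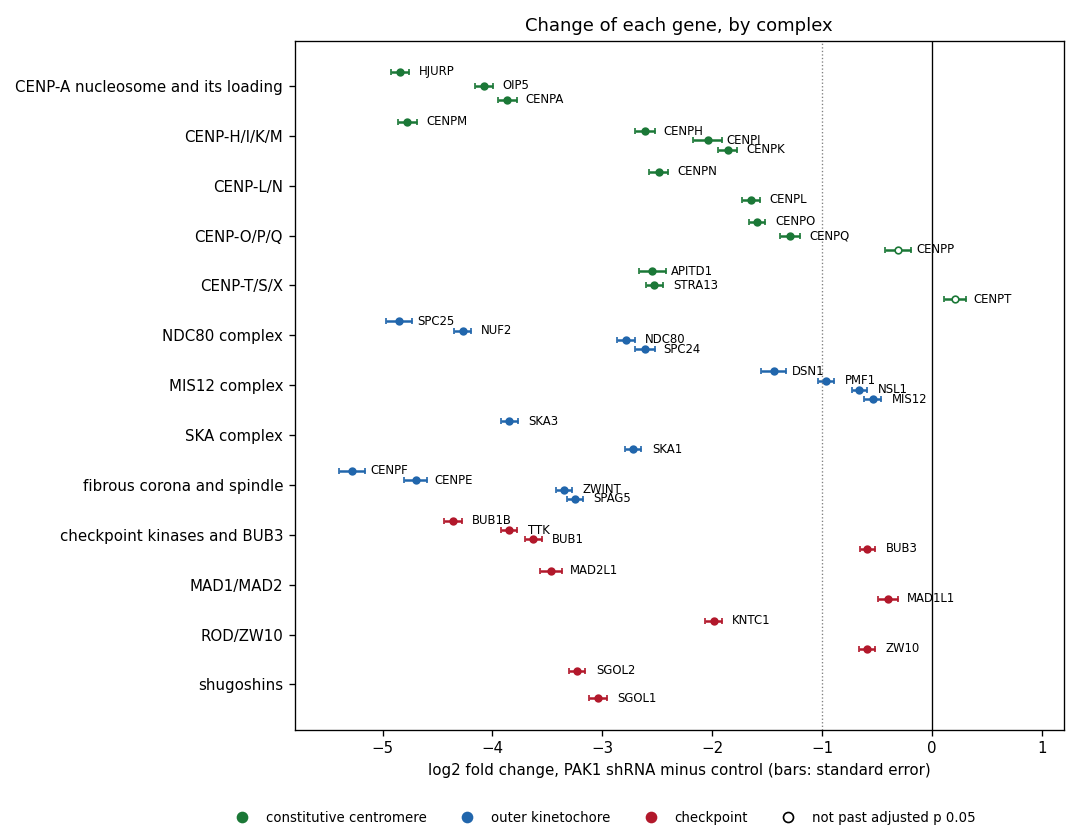
Log2 fold change of each gene with its standard error (x axis), arranged by complex (y axis) and coloured by class. The dotted line marks a 2-fold fall, and open circles are genes whose adjusted p did not pass 0.05. SPC24 is drawn at its measured value, although its fall is a bound. The other NDC80 genes and the corona genes lie at -2.78 or lower and the MIS12 complex genes between -1.44 and -0.54.

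All 14 genes of the outer kinetochore fell, against 32.0% of all genes. Of these 14, 11 fell by at least 2-fold (9.09% of all genes) and 7 by at least 8-fold (0.668% of all genes). The class median was -3.02, with a range of -5.28 to -0.54. SPC24, at background in PAK1 shRNA cells, is counted in the 14 and the 11, and without it the median was -3.25. CENPF had a normalized log2 intensity of 16.72 and 16.64 in control cells against 11.57 and 11.23 in PAK1 shRNA cells. This gave a log2 fold change of -5.28 (SE 0.12, adjusted p = 6.3e-07, limma). CENPE, the kinesin motor that carries chromosomes to the spindle equator, had intensities of 13.05 and 12.95 against 8.42 and 8.18 and a log2 fold change of -4.70 (SE 0.10, adjusted p = 5.5e-07, limma), or 3.85% of the control level. The groups were well apart in both genes. ZWINT, which helps to tether the ROD/ZW10 complex, and SPAG5 (astrin), a spindle protein found at kinetochores with stable attachments, fell to 9.80% and 10.5% of the control level, with log2 fold changes of -3.35 and -3.25 (SE 0.07 for both).

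The 4 genes of the NDC80 complex, the main coupler of kinetochores to microtubules, fell by different amounts. SPC25 had a normalized log2 intensity of 11.85 and 12.07 in control cells against 7.24 and 6.98 in PAK1 shRNA cells, a log2 fold change of -4.85 (SE 0.12, adjusted p = 7.3e-07, limma), or 3.46% of the control level. NUF2, the partner of NDC80 at the microtubule end, had intensities of 12.25 and 12.28 against 8.06 and 7.93, a log2 fold change of -4.27 (SE 0.08). NDC80 itself had intensities of 13.02 and 13.13 against 10.33 and 10.25, a log2 fold change of -2.78 (SE 0.08). All arrays of the PAK1 shRNA group lay below those of the control group in these genes, as in 38.0% of all genes. SPC24, the partner of SPC25, had intensities of 8.63 and 8.85 on the control arrays and was not well above background on either PAK1 shRNA array (6.11 and 6.14). Its fall is therefore given as a bound under the reported processing, at least 5.86-fold lower against the lowest signal well above background. The limma fit gave an adjusted p of 2.5e-06 from these values at background, which is not used as support. The median of the set was -2.61 with SPC24 at its bound as well. The log2 of the bound was -2.55, and over the alternative settings the log2 fold change of SPC24 ran from -5.31 to -1.49. The bound thus does not hold under every setting.

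The MIS12 complex, the bridge between the constitutive centromere and the NDC80 complex, fell least, with a median of -0.81. DSN1 was its only gene with a fall of over 2-fold, with intensities of 11.67 and 11.41 in control cells against 10.01 and 10.19 in PAK1 shRNA cells and a log2 fold change of -1.44 (SE 0.11). PMF1 read 12.85 and 12.81 against 11.88 and 11.85, a log2 fold change of -0.97 (SE 0.07). NSL1 read 9.82 and 9.79 against 9.14 on both PAK1 shRNA arrays, a log2 fold change of -0.66 (SE 0.07). MIS12 had the smallest change of the class, with 11.42 and 11.46 against 10.84 and 10.96 and a log2 fold change of -0.54 (SE 0.08, adjusted p = 0.0011, limma). These falls were small beside those of other outer kinetochore genes but larger than the spread between arrays. SKA1 and SKA3, which stabilise the grip of the NDC80 complex on depolymerising microtubules, had log2 fold changes of -2.72 (SE 0.07) and -3.85 (SE 0.08).

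All 10 checkpoint genes fell, against 32.0% of all genes, with a median of -3.13 and a range of -4.36 to -0.40. Of these 10, 7 fell by at least 2-fold (9.09% of all genes) and 6 by at least 8-fold (0.668% of all genes). The kinases and pseudokinase of the checkpoint fell most. BUB1B (BubR1), a part of the complex that inhibits the anaphase-promoting complex, had a normalized log2 intensity of 12.91 and 13.03 in control cells against 8.59 and 8.63 in PAK1 shRNA cells. This gave a log2 fold change of -4.36 (SE 0.08, adjusted p = 3.9e-07, limma), or 4.87% of the control level. TTK (MPS1), the kinase that starts checkpoint signalling at unattached kinetochores, had intensities of 11.40 and 11.49 against 7.63 and 7.56, a log2 fold change of -3.85 (SE 0.08). BUB1, the kinase that docks further checkpoint proteins, had intensities of 12.77 and 12.72 against 9.07 and 9.16, a log2 fold change of -3.63 (SE 0.08). Both PAK1 shRNA arrays lay below both control arrays in all 3, as in 38.0% of all genes.

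Within the checkpoint, binding partners differed in size of fall. MAD2L1, the protein that captures CDC20, had intensities of 12.77 and 13.00 in control cells against 9.45 and 9.38 in PAK1 shRNA cells, a log2 fold change of -3.47 (SE 0.10). MAD1L1, which holds MAD2 at kinetochores, had intensities of 9.25 and 9.36 against 8.996 and 8.81, a log2 fold change of -0.40 (SE 0.09, adjusted p = 0.0086, limma), and without PAK1 shRNA replicate 2 it was -0.31 (adjusted p = 0.055) and no longer passed. BUB3, which carries BUB1 and BubR1 to kinetochores, had intensities of 13.77 and 13.76 against 13.20 and 13.16, a log2 fold change of -0.59 (SE 0.07, adjusted p = 0.00043, limma). These values correspond to 75.7% of the control level for MAD1L1, 66.5% for BUB3 and 9.03% for MAD2L1, but a dimmer probe of BUB3 was at 40.9%. KNTC1 (ROD) and ZW10 belong to 1 complex that brings dynein to kinetochores. KNTC1 had intensities of 12.85 and 12.75 against 10.81 and 10.82, a log2 fold change of -1.99 (SE 0.08), and ZW10, which also acts in membrane traffic outside mitosis, had 10.62 and 10.59 against 9.98 and 10.05, a log2 fold change of -0.59 (SE 0.07). The shugoshins SGOL1 and SGOL2, which protect cohesin at centromeres, fell to 12.2% and 10.7% of the control level, with log2 fold changes of -3.04 and -3.23.

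The differences between classes were not tested. The constitutive centromere had the median nearest to 0 under every processing compared, while the order of the outer kinetochore and the checkpoint changed. With the background model fitted on all spots, including those of flagged background, the medians were -1.97 for the centromere, -2.57 for the outer kinetochore and -2.14 for the checkpoint.

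**Figure D4:**
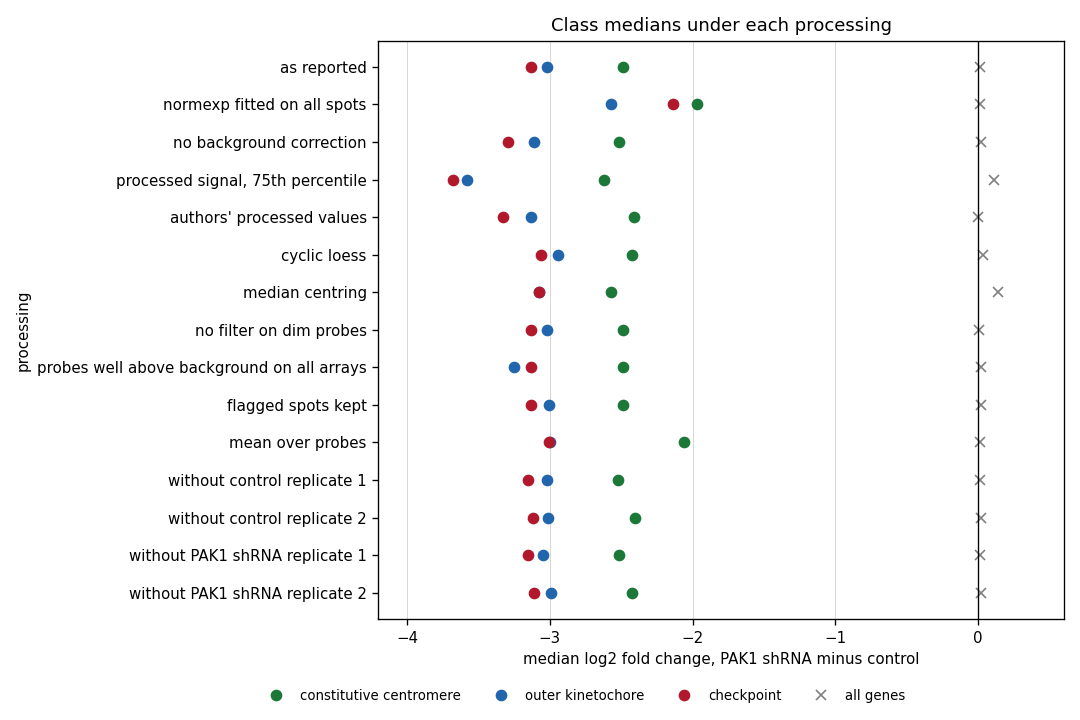
Median log2 fold change (x axis) of each class and of all genes tested under each processing (y axis). Each circle is a class median and each cross the median of all genes. Class medians lie between -3.68 and -1.97 under every processing, and the centromere median is always the nearest to 0.

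Of the genes, 30 were measured by 1 probe and 9 by several. For 8 of these 9 at least 2 probes gave a value, and the direction was the same for every probe of a gene. BUB3 had values of -1.29 and -0.59, CENPF of -5.28 and -4.80, CENPM of -4.77 and -4.57, and ZWINT of -3.35 and -3.06. The widest span was that of CENPN, whose 3 probes ranged from -2.49 to -1.38. For CENPI the second probe was flagged on both control arrays and gave no value. For BUB3 the dimmer probe thus fell by more than 2-fold while the brighter one, which stands for the gene, did not.

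A list of 21 other genes of the kinetochore and its regulators, all tested, had 17 lower and 2 higher genes and 2 that did not pass the test. Over all genes, 32.0% were lower and 30.6% higher. The median log2 fold change of the list was -0.90. Of the 21 genes, 10 fell by at least 2-fold, against 9.09% of all genes. CASC5 (KNL1), the scaffold that binds BUB1 and the MIS12 complex, had the largest fall, with a log2 fold change of -4.04 (SE 0.08). MLF1IP (CENPU), a partner of CENPO and CENPQ, and CENPW, the histone-fold partner of CENPT, had log2 fold changes of -2.92 (SE 0.07) and -2.55 (SE 0.10). CENPC1, which links CENP-A nucleosomes to the MIS12 complex, had -0.77 (SE 0.08), and CENPB, which binds a DNA motif of centromeric repeats, -0.57 (SE 0.12, with 1 PAK1 shRNA array left out for a flag). ZWILCH, the third subunit beside KNTC1 and ZW10, had -2.06 (SE 0.09), and SKA2, beside SKA1 and SKA3, had -1.63 (SE 0.08). TRIP13, the ATPase that remodels MAD2, had -2.28 (SE 0.09), while MAD2L1BP, its adaptor, rose by 0.37 (SE 0.08, adjusted p = 0.0051, limma). NDE1, a dynein cofactor, rose by 0.31 (SE 0.07, adjusted p = 0.0094, limma). Its relative NDEL1 had a log2 fold change of 0.03 and the microtubule protein CLASP1 of 0.12, and neither passed the test.

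Genes of proliferating cells moved with the set. MKI67, the Ki-67 antigen, had a normalized log2 intensity of 13.16 and 13.12 in control cells against 8.88 and 8.79 in PAK1 shRNA cells, a log2 fold change of -4.31 (SE 0.08). PCNA, the replication clamp, had 13.51 and 13.71 against 12.09 and 12.04, a log2 fold change of -1.55 (SE 0.09). TOP2A, the mitotic topoisomerase, fell to 3.50% of the control level, so all 3 proliferation markers were lower, against 32.0% of all genes.

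Markers of cell types were examined in the same way, and their counts stand beside 30.6% of all genes higher and 32.0% lower. All 8 basal mammary epithelial markers were well above background on every array, and their summed intensity was 417732 to 466341 in control and 399320 to 399621 in PAK1 shRNA samples, with 2 markers higher, 5 lower and 1 not passing. Of 7 luminal markers, 2 were higher and 2 lower, and PGR was not above background. The sum over the 6 luminal markers other than KRT18, whose spot was flagged on control array 1, was 16507 to 17455 in control and 15570 to 15978 in PAK1 shRNA samples. KRT18 was higher (log2 fold change 0.47), and with it the sum was 161883 on control array 2 against 225556 and 208096 in PAK1 shRNA samples. Of 7 fibroblast markers, 3 (COL1A2, COL3A1 and PDGFRA) were not above background in either group, 3 were higher and 1 lower, and the sum was 4182 to 4919 in control and 8000 to 8185 in PAK1 shRNA samples. Of 5 leukocyte markers, 3 were higher (CD68, CD14 and ITGAM), PTPRC and CD3E did not pass the test, and the sum over the 4 other than CD14, which was flagged on 1 array, was 1087 to 1149 in control and 6275 to 8331 in PAK1 shRNA samples. CD68 alone, at 8.98 and 8.83 against 12.41 and 12.89 (log2 fold change 3.75), made up most of that rise. CD14 was brighter and also higher (log2 fold change 1.23). With it the sum was 20231 and 19389 in control samples against 50019 on PAK1 shRNA array 1. The part of these shifts in the values of the kinetochore genes was not tested.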

How the data were processed

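RNA of 2 control and 2 PAK1 shRNA samples was measured on 1-colour Agilent arrays, and samples were grouped by their titles. The deposited scanner files hold the intensity of every spot as Agilent Feature Extraction (9.5 in the labels, 9.5.3.1 in the file headers) wrote it, not normalized between arrays. A deposited table holds log2 values, whose normalization the file does not state, with column medians of 9.40 to 9.42, used as an alternative. The study's methods name normexp, quantile normalization and limma's moderated test.

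Here the median local background was subtracted from the mean intensity, and normexp (offset 50) was fitted on each array with spots of flagged background left out. The background means then came to -9.19 and -12.1 for control and -10.4 and -9.78 for PAK1 shRNA, and with all spots to -666, -740, -10.7 and -10.2, which is a departure from the methods taken because of these values. Control spots and outlier flags were dropped, arrays were quantile normalized and spots of a probe averaged. Probes had to be well above background on both arrays of either group, and a gene was represented by its brightest probe on average. The limma package (3.58.1, R 4.3.3) tested 21990 genes (lmFit, eBayes), and p-values were adjusted over them by Benjamini-Hochberg, with a threshold of 0.05. A gene not well above background on both arrays of a group is given as a bound. All 4 arrays were on 1 slide, which could not be fitted as a block, and their number limits the precision. The 2 arrays of a group were not copies of each other, since their log2 values differed with an SD of 0.175 in control and 0.159 in PAK1 shRNA cells.

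The 39 genes, their classes and all lists were chosen with earlier results of these data known, so lists are described by counts and medians without a test. The rule named all 39 genes, PAK1, 3 proliferation markers and other kinetochore genes, with values in every array for the 3 largest falls per class and for genes that rose or did not pass. Values in every array of other genes, and cell type markers by name, were added after they were seen. Of the leukocyte markers chosen, 1 is not reported here. On simulated data (21023 genes, 200 changed), the share of changed genes found was 90% at a log2 change of 1 and 18% at 0.5, and 10 unchanged genes were called. In the data 62.5% of genes passed, a far larger share than was changed in the simulation. The adjusted threshold was therefore stricter in the simulation, and its shares and false calls do not carry over to the data. Gene names are those of the array, matched to RefSeq through accessions for the promoters. Alternatives changed the normexp fit, the signal used, the scaling between arrays, the handling of dim probes, flags and multiple probes, the test and its threshold, added a replicate block, or left out 1 array.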

Additional observations from a re-analysis of the deposited data

How the results depend on the processing

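No change of any of the 39 genes reversed under the alternatives. Of their values under alternatives, 650 kept their direction and their side of the threshold, 7 newly passed it and 2 (both of MAD1L1) no longer did. The number of lower genes among the 39 was 36 to 38 under every alternative, and the number with a fall of at least 2-fold was 30 to 32. MAD1L1 also failed the ordinary unpaired t-test (adjusted p = 0.11). CENPP passed with the authors' processed values (-0.34), cyclic loess (-0.62), median centring (-0.42), flagged spots kept (-0.30) and the mean over probes (-0.61). It also passed without control replicate 2 (-0.41), where only 1 array per group was left for CENPP, so that this pass rests on the spread of other genes.

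The fit of the background and the signal column both moved the sizes, and the cause was not tested for any of these shifts. With normexp fitted on all spots, the median log2 fold change of the 39 genes was -2.17, that of the centromere -1.97, of the outer kinetochore -2.57 and of the checkpoint -2.14. In 15 of the 39 genes the fold then differed by over 1.5 times from the reported one, for example -2.84 for CENPA, -3.68 for SPC25, -2.58 for SKA3 and -2.94 for TTK. Without background correction the medians were -2.80 for the 39 genes, -3.11 for the outer kinetochore and -3.29 for the checkpoint. With the processed signal scaled to the 75th percentile they were -3.08, -2.62 (centromere), -3.58 and -3.68, 8 genes moved by over 1.5 times, and SKA3 reached -5.31. SPC24, at background in PAK1 shRNA cells, is among the genes that moved under both settings. With the authors' processed values they were -2.87, -2.41, -3.13 and -3.33. Cyclic loess gave -2.95 for the outer kinetochore and -3.06 for the checkpoint, and median centring gave -2.57 for the centromere and -3.08 for both others. Median centring moved the median of all genes to 0.14 and the processed signal to 0.11. Keeping only probes well above background on all arrays left out SPC24 and gave -3.25 for the outer kinetochore. The mean over probes gave -2.06 for the centromere, -2.995 for the outer kinetochore, -3.004 for the checkpoint and 1 higher gene among the other kinetochore genes. The ordinary t-test had 4138 higher and 4520 lower genes of all genes, against 6721 and 7028 with limma.

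Leaving out 1 array in turn gave 5571 to 6222 higher and 5954 to 6529 lower genes of all genes. It gave 36 to 38 lower and 0 to 1 higher of the 39 genes (CENPT, without PAK1 shRNA replicate 2), 31 with a fall of at least 2-fold, and 16 to 17 lower and 1 to 2 higher of the other kinetochore genes. The medians were -2.72 to -2.53 for the 39 genes, -2.52 to -2.40 for the centromere, -3.05 to -2.99 for the outer kinetochore and -3.16 to -3.11 for the checkpoint. The lone array of a group is assumed to vary like the others. Deviations from the group means had a correlation of 0.012 across genes between samples with the same replicate number. This value does not show whether such samples were prepared together. In a fit that blocked on the replicate number, over the 21023 genes with a value on all 4 arrays, 6668 genes were higher and 6808 lower. CENPP was not in this fit, and 37 of the other 38 genes of the set were lower. Signal over background limits the size of the fall of SPC24.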
